A study of Mus musculus with 8 samples.

Results

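A set of 10 genes that encode subunits of the transcription factor AP-1 or belong to the immediate early response was followed, chosen by name: *Fos*, *Fosb*, *Fosl1*, *Fosl2*, *Jun*, *Junb*, *Jund*, *Egr1*, *Atf3* and *Ier2*. They are 10 of the 31053 genes counted, all 10 were found by symbol, and 9 passed the filter on low counts, with *Atf3* below it. RNA was sequenced from fibro/adipogenic progenitors (FAPs), the interstitial mesenchymal cells of skeletal muscle that can turn into adipocytes and fibrogenic cells. The 8 samples are 4 of SCA1-High-FAPs against 4 of the SCA1-Low-FAPs state, sorted by their surface level of the antigen SCA-1. The design text speaks of 4 mice, but no sample is tied to a mouse, and the main tests treated the 8 samples as independent. All came from hind limb muscles of *mdx* mice (strain C57BL/10ScSn-Dmdmdx/J, which lacks dystrophin) aged 45 days, with no treatment named in the labels. Both cell states were grown for 5 days in growth medium with serum and detached with trypsin before RNA was isolated, so the values describe cultured cells and not cells in the muscle. The question put to the data was whether these genes differ between the cell states, with fold changes given as SCA1-Low-FAPs over SCA1-High-FAPs.

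AP-1 is a pair of basic leucine zipper (bZIP) proteins, in which a Fos protein needs a Jun protein as partner while Jun proteins can also pair with each other. Serum, growth factors, mechanical stress and cell dissociation switch on immediate early genes within minutes through kinases that act on transcription factors already present, and the mRNAs decay rapidly. In mesenchymal cells AP-1 is known for its part in proliferation, migration and matrix turnover.

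The libraries held between 1880561 and 3985656 counts on genes, so that 3 counts, the limit that a count of 0 allows, corresponded to a CPM of 0.753 to 1.595 (CPM, counts brought to one common library total). Such limits cover counting error only. In both cell states replicates 1 and 2 were the shallower libraries, with 1880561 to 2183607 counts against 2466780 to 3985656 in replicates 3 and 4. *Ly6a*, which encodes SCA-1, was, against the sort, higher at the mRNA level in SCA1-Low-FAPs, with 711 ± 184 CPM in SCA1-High-FAPs against 1087 ± 58.8 CPM in SCA1-Low-FAPs (SD, n = 4 each; log2 fold change 0.61, edgeR adjusted p = 0.0341). The replicates did not overlap, but the call was lost in 7 of the 8 fits with 1 library left out (edgeR adjusted p from 0.0513 to 0.0947) and passed only without SCA1-High-FAPs replicate 4 (0.0124). Of the other FAP markers, *Pdgfra* was present in every library at 157 CPM or more, *Thy1* was called higher in SCA1-Low-FAPs (0.67, lost without SCA1-Low-FAPs replicate 1) and *Dpt* higher in SCA1-High-FAPs (−2.42, log2). In bulk RNA, fewer cells that express a gene and less mRNA per cell cannot be told apart.

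The mRNAs of immediate early genes often carry copies of the letters ATTTA in the 3′ UTR, the core of AU-rich elements at which decay factors bind. In the GENCODE M21 annotation of GRCm38, *Fos* held 4 copies in a 3′ UTR of 815 bases, *Junb* 2 in 485 and *Jun* 4 in 1233, or 4.91, 4.12 and 3.24 per kb. The median over 17973 genes with a 3′ UTR of at least 200 bases was 1.49 per kb, and 93.3%, 88.7% and 80.4% of those genes had a lower density than *Fos*, *Junb* and *Jun*. The other members ran from 2.53 per kb in *Atf3* and 1.57 per kb in *Fosl1* to 0.434 per kb in *Fosb* and no copy in the 755 bases of *Ier2*. *Fosb* and *Ier2*, which followed *Fos* over the samples, were thus the members of lowest density. Windows of 30 bases around ATTTA are shown for *Fos* and *Fosb*, whose levels moved together at unlike densities, and for *Fosl1* and *Fosl2*, whose levels did not follow them. Capitals mark ATTTA, and in *Fos* a pair of copies overlaps by 1 base. The windows lie at chr12:85477100-85477129 (plus strand), chr7:19303326-19303355 (minus), chr19:5455866-5455895 (plus) and chr5:32156864-32156893 (plus).
Fos: ttgtgttttcaATTTATTTAttaagatgga
Fosb: cccacccccagctATTTAtccctttcctgg
Fosl1: aagggcagctgctATTTAttttcctaaaga
Fosl2: aattgacATTTAttttattATTTAttttaa

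RefSeq promoters (GRCm38.p6, 250 bases before to 50 bases after the RefSeq start site) matched 7 of the 10 members, all but *Fosl1*, *Egr1* and *Ier2*. They were searched on both strands for the AP-1 site (TGACTCA, or TGAGTCA on the other strand), the cAMP response element TGACGTCA, the variants TGACATCA and TGACGTTT, the CArG box bound by serum response factor, and TATAAA. None of the motifs overlapped another in the matches found. TGACATCA, held by 3.62% of 32851 promoters, was found in *Jun*, and TATAAA, held by 13.6%, was found in *Fos* and *Junb*. The AP-1 site (5.2% of all promoters), TGACGTCA (1.79%), the CArG box (1.63%) and TGACGTTT (0.390%) were in none of the 7 windows. Bases farther upstream were not searched, so these genes may hold such sites outside the windows. Nor are all RefSeq start sites those of the GENCODE genes given below. The *Jund* window (chr8:70697489-70697788) ends before that gene begins, and the windows of *Atf3* and *Fosl2* lie inside the genes. The 3 matches are shown with 10 bases on either side and the motif in capitals, for *Fos* and *Junb* because their highest samples were the same and for *Jun* because it came nearest to a call after *Fosl1*. The match in *Jun* begins 45 bases before the RefSeq start site (chr4:95052250-95052277, minus strand), that in *Fos* 33 bases before it (chr12:85473847-85473872, plus), and that in *Junb* at the RefSeq start site itself (chr8:84978733-84978758, minus). In *Junb* that site lies upstream of the GENCODE start given below.
Jun: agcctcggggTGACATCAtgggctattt
Fos: acagcgcttcTATAAAggcgccagct
Junb: acaaattcagTATAAAagcttggggc

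Of the 9 tested members 1, *Fosl1*, was called as different between the cell states, and it was higher in SCA1-Low-FAPs. A call needed an adjusted p under 0.05 together with a change of more than 0.5 log2 units, and by this rule 7.68% of the 10181 tested genes were called, 3.32% in the direction of SCA1-Low-FAPs and 4.36% in that of SCA1-High-FAPs. The share of members called, 1 of 9, was thus near that of all genes. At an unadjusted p under 0.05 there were 2 members, *Fosl1* and *Jun*, where 21.3% of all tested genes passed. The estimate was below 0 for 7 members and above 0 for *Fosl1* and *Fosl2*, with a median log2 fold change of −0.60 over the 9 members and 0.00 over all tested genes. Without SCA1-High-FAPs replicate 2, the sample with the most *Fos*, the median became 0.00, with 5 members above 0. *Fos* was highest in replicates 1 and 2 of both states, so this fit leaves the states unequal in such samples. With the replicate number as a block the median was −0.53, with 2 members above 0. In each other fit with 1 library left out 2 members were above 0. The medians of those fits ran from −0.79 without SCA1-High-FAPs replicate 4 to −0.19 without SCA1-High-FAPs replicate 1. *Fosl1* was the only tested member whose replicates did not overlap between the states, which held for 14.1% of all tested genes.

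**Figure D1:**
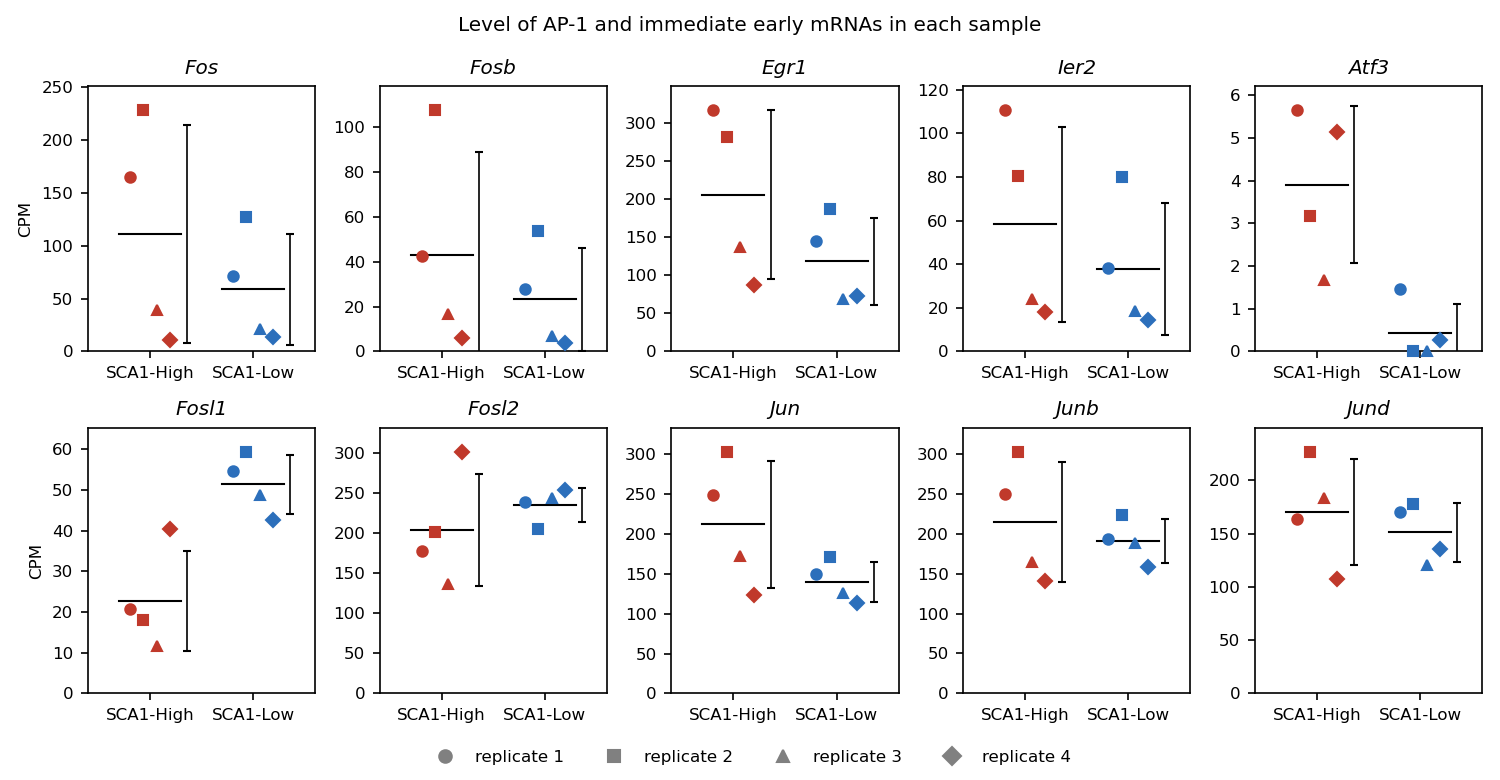
CPM of each of the 10 genes in the 4 SCA1-High-FAPs samples (red) and the 4 SCA1-Low-FAPs samples (blue), with marker shapes for the replicate number, a line at the mean and a bar for ± 1 SD on a linear axis from 0. *Fos*, *Fosb*, *Egr1* and *Ier2* were higher in replicates 1 and 2 of both states than in replicates 3 and 4, while *Fosl1* separated the states.

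*Fos* (chr12:85473890-85477273, plus strand) encodes the founding member of the Fos family. Its level was 165, 228, 38.8 and 11 CPM in SCA1-High-FAPs replicates 1 to 4 against 71.5, 127, 21.6 and 14.0 CPM in SCA1-Low-FAPs replicates 1 to 4. Replicates 1 and 2 were the high samples in both states, the groups overlapped throughout, and the range within SCA1-High-FAPs was wider than the distance between the means of 111 ± 103 and 58.6 ± 52.5 CPM (SD, n = 4 each). On the log2 scale the difference was −0.95 with a standard error of 1.1 and was not significant (edgeR adjusted p = 0.704). *Fosb* (chr7:19302696-19310051, minus strand), which encodes a close relative of FOS, was at 42.4, 108, 16.7 and 5.87 CPM in SCA1-High-FAPs against 28.0, 53.9, 6.98 and 3.70 CPM in SCA1-Low-FAPs. The samples ranked almost as for *Fos*, and the log2 fold change of −0.96 ± 1.13 (SE) did not pass (edgeR adjusted p = 0.712). Without SCA1-High-FAPs replicate 2, the sample with the most *Fosb*, the estimate became 0.07.

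*Egr1* (chr18:34859823-34864984, plus strand) encodes a zinc finger transcription factor that is induced by many of the same stimuli as *Fos*. It was counted at 317, 282, 137 and 86.9 CPM in SCA1-High-FAPs against 145, 187, 68.8 and 72.9 CPM in SCA1-Low-FAPs. Replicates 1 and 2 were again the high samples of both states, the groups overlapped, and the log2 fold change was −0.81 ± 0.52 (SE, edgeR adjusted p = 0.446). *Egr1* passed only with the replicate number as a block (−0.75, edgeR adjusted p = 0.0309), and these numbers are not tied to a mouse. *Ier2* (chr8:84661331-84662852, minus strand) is a single-exon gene whose nuclear protein is induced with the early response. Its level was 111, 80.5, 23.8 and 18.0 CPM in SCA1-High-FAPs against 38.2, 80.04, 18.4 and 14.3 CPM in SCA1-Low-FAPs. The ranges overlapped almost fully below SCA1-High-FAPs replicate 1, and the difference of −0.66 ± 0.79 on the log2 scale (SE) did not pass (edgeR adjusted p = 0.717).

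*Atf3* (chr1:191170296-191218039, minus strand) encodes a stress-induced bZIP protein of the ATF/CREB family that pairs with Jun proteins. It received 12, 7, 4 and 14 reads in SCA1-High-FAPs against 3, 0, 0 and 1 reads in SCA1-Low-FAPs, 37 against 4 in all. The CPM values did not overlap, at 1.67 to 5.65 against 0 to 1.45, but all SCA1-Low-FAPs libraries were at or under the limit of 3 counts. An exact two-sided permutation test of the CPM, chosen after the counts were seen, ran over the 70 assignments of the labels without pairing. This permutation test gave p = 0.0286, the smallest p that these assignments allow. Across genes the difference did not pass, with an adjusted p of 0.118 from edgeR without the filter on low counts and 0.0533 from DESeq2. *Atf3* was therefore low in both states, and the depth did not allow a firm call.

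**Figure D2:**
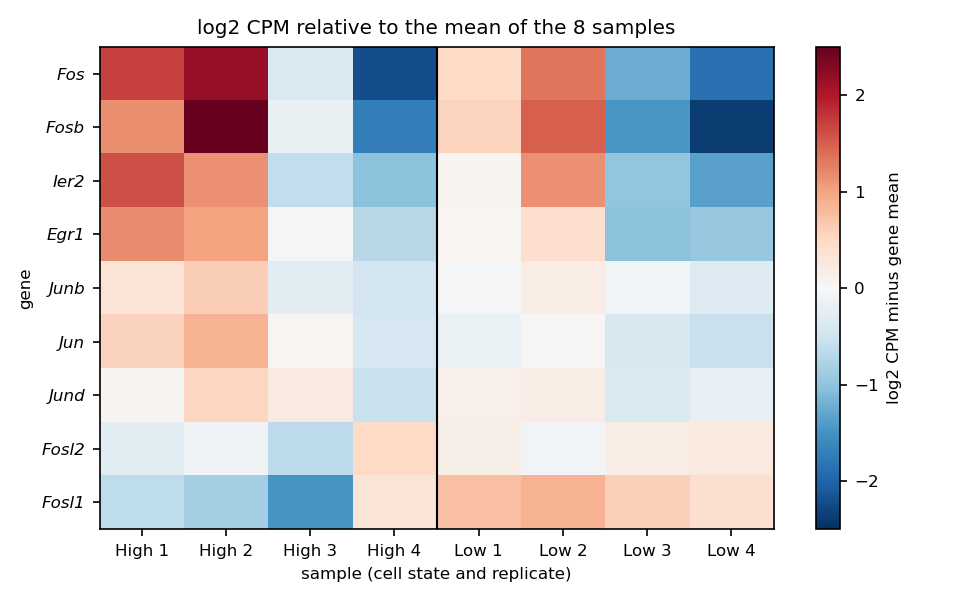
log2 CPM of the 9 tested members in each of the 8 samples, minus the mean of the gene over the samples (colour scale, log2 units), with SCA1-High-FAPs left of the line and SCA1-Low-FAPs right of it. *Fos*, *Fosb*, *Ier2* and *Egr1* were above their mean in replicates 1 and 2 of both states, whereas *Fosl1* was above its mean in all 4 SCA1-Low-FAPs samples and in SCA1-High-FAPs replicate 4.

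*Fosl1* (chr19:5447547-5455946, plus strand) encodes FRA-1, a Fos protein without the strong activation domain of FOS. Its level was 20.7, 18.1, 11.7 and 40.3 CPM in SCA1-High-FAPs against 54.6, 59.4, 48.8 and 42.8 CPM in SCA1-Low-FAPs. All SCA1-Low-FAPs samples lay above all SCA1-High-FAPs samples, but SCA1-High-FAPs replicate 4 came within a few CPM of SCA1-Low-FAPs replicate 4. The means were 22.7 ± 12.4 and 51.4 ± 7.18 CPM (SD, n = 4 each), a difference of 1.16 ± 0.31 on the log2 scale (SE, edgeR adjusted p = 0.0278). The direction held in each fit with 1 library left out, with log2 fold changes from 0.94 to 1.61. The call, however, was lost without SCA1-High-FAPs replicate 1, 2 or 3 (edgeR adjusted p = 0.0714, 0.0762 and 0.0630) and without SCA1-Low-FAPs replicate 1 or 2 (0.0805 and 0.0757). It passed without SCA1-High-FAPs replicate 4 (0.00237) and without SCA1-Low-FAPs replicate 3 or 4 (0.0360 and 0.0478).

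*Fosl2* (chr5:32135801-32157842, plus strand) encodes FRA-2, the other Fos protein that lacks that domain. It was the most abundant mRNA of its family in 7 of 8 samples, at 177.5, 202, 137 and 301 CPM in SCA1-High-FAPs against 239, 205, 244 and 254 CPM in SCA1-Low-FAPs. SCA1-High-FAPs held both the lowest and the highest sample, and the log2 fold change of 0.20 ± 0.20 (SE) did not pass (edgeR adjusted p = 0.607). As for *Fosl1*, the highest SCA1-High-FAPs sample was replicate 4, in which *Fos* and *Fosb* were lowest.

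*Jun* (chr4:95049034-95052222, minus strand) encodes the founding Jun protein, which Jun N-terminal kinases phosphorylate. Its level was 249.5, 303, 172 and 124 CPM in SCA1-High-FAPs against 149, 171, 127 and 114 CPM in SCA1-Low-FAPs. SCA1-High-FAPs replicates 1 to 3 were above every SCA1-Low-FAPs sample, but the ranges overlapped because SCA1-High-FAPs replicate 4 was low. The log2 fold change was −0.60 ± 0.24 (SE), with an edgeR adjusted p of 0.146. Without that library it was −0.79 and passed (edgeR adjusted p = 0.0251), and it also passed without the filter on low counts (−0.58, edgeR adjusted p = 0.0484).

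*Junb* (chr8:84974484-84978718, minus strand), a Jun protein that can also dampen activation by JUN, was at 249.5, 302, 164 and 141 CPM in SCA1-High-FAPs against 193, 224, 188 and 158 CPM in SCA1-Low-FAPs. *Jund* (chr8:70698949-70700616, plus strand), the Jun protein known for its steady expression in resting cells, was at 163, 226.5, 184 and 107 CPM in SCA1-High-FAPs against 171, 178, 120.2 and 135 CPM in SCA1-Low-FAPs. In both genes all SCA1-Low-FAPs samples lay inside the range of the SCA1-High-FAPs samples. The log2 fold changes were −0.17 ± 0.21 for *Junb* and −0.17 ± 0.20 for *Jund* (SE, edgeR adjusted p = 0.717 and 0.694), and without SCA1-High-FAPs replicate 2 they became 0.05 and 0.01. *Jun*, *Junb*, *Jund* and *Ier2* have a single exon, as do 4.72% of protein-coding genes with an annotated 3′ UTR, each taken by its transcript with the longest 3′ UTR. *Junb* overlaps *Prdx2* on the opposite strand, which had 7488 counts over the 8 samples, and *Jun* overlaps the antisense RNA *Junos* with 33 and *Fosl1* overlaps *Ccdc85b* with 4. The strand setting of the counting was not given in the sources used here, so reads of such neighbours may not have been told apart.

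**Figure D3:**
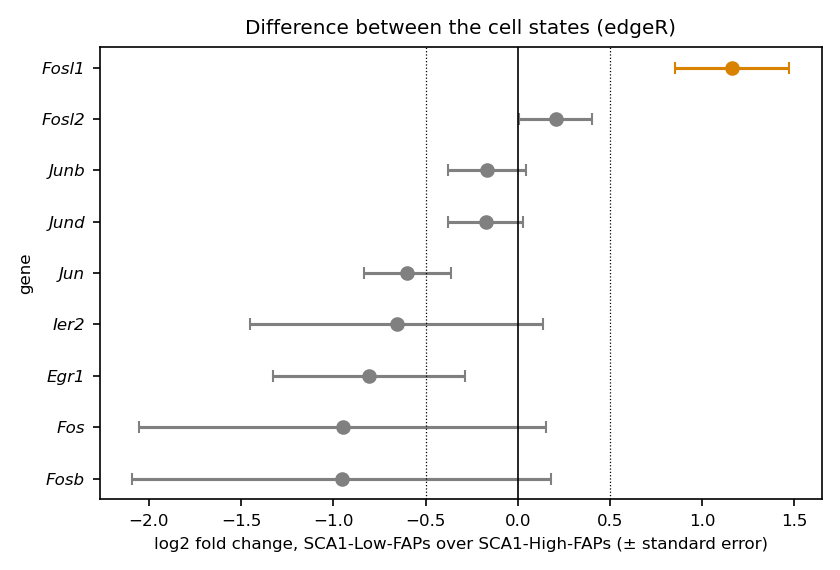
log2 fold change of each tested member (SCA1-Low-FAPs over SCA1-High-FAPs, 4 samples each) with a standard error derived from the edgeR F statistic. The called gene is in orange, and dotted lines stand at a size of 0.5. Only *Fosl1*, at 1.16 ± 0.31, was called, and the error bars of *Fos* and *Fosb* exceeded a log2 unit to either side.

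The members differed in how much they varied between replicates of the same cell state. The standard deviation of log2 CPM within a state was 1.73 for *Fos*, 1.70 for *Fosb*, 1.18 for *Ier2* and 0.80 for *Egr1*. Over the 10181 tested genes the median was 0.38, the 95th percentile 0.97 and the 99th percentile 1.34, and *Fos* stood at rank 11 from the top. Among the 1965 genes within 0.5 log2 units of the level of *Fos*, with *Fos* itself counted, 2 varied as much, and *Fos* was 1 of these 2. *Fosl1* (0.52), *Jun* (0.44), *Junb* (0.39), *Jund* (0.37) and *Fosl2* (0.35) were less variable, and 43.7% (*Fosl2*) to 70.8% (*Fosl1*) of tested genes had a lower value. Beside genes of like level, however, they were among the more variable. With the gene itself counted, 61 of 891 genes varied as much as *Jun*, 69 of 756 as *Junb* and 106 of 942 as *Jund*. For *Fosl2* this held for 100 of 694 genes and for *Fosl1* for 355 of 2209.

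Several members, among them the 4 most variable, shared the set of their 4 highest samples, though not the order within it. The 4 samples highest in *Fos* were replicates 1 and 2 of both states, and the same 4 were highest for *Fosb*, *Egr1*, *Ier2* and *Junb*, 4 of the 8 other tested members. Over all tested genes this held for 1.21%, and among the 39 tested genes of a wider list of immediate early genes it held for 5. These were *Klf2*, a zinc finger factor, *Dusp1*, a MAP kinase phosphatase, *Btg2*, an antiproliferative gene, *Zfp36*, whose protein binds AU-rich elements, and *Ppp1r15a*, a stress-response phosphatase subunit, named here after their values were seen. These 4 samples were also the 4 with the fewest counts, as given above, and the part of depth in the pattern was not tested. Neither the labels nor the methods say what replicates of 1 number share.

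By the correlation of log2 CPM over the 8 samples, the genes most like *Fos* were *Fosb* (Pearson r = 0.976), *Aspn*, which encodes the matrix protein asporin (0.971), and *Zfp943* (0.968). *Aspn* was at 62.2, 56.5, 22.6 and 13.6 CPM in SCA1-High-FAPs against 28.5, 39.8, 17.1 and 18.0 CPM in SCA1-Low-FAPs. The genes most like *Fosl1* were *Kif18a*, a mitotic kinesin (0.984), *Ccng1*, which encodes cyclin G1 (0.973), and *Smoc2*, a matricellular protein (0.970). *Ccng1* was at 63.5 to 138 CPM in SCA1-High-FAPs against 183 to 193 CPM in SCA1-Low-FAPs, and like *Fosl1* it was highest among the former in replicate 4. These are descriptions over 8 points that share libraries, picked as the highest of all tested genes.

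The make-up of each family was then compared as the share of its counts, which does not depend on library size. The libraries start from the 3′ end, so that a transcript gives about the same reads whatever its length, and shares could be set beside each other. *Fosl1* made up 6.34% ± 3.45 of Fos family counts in SCA1-High-FAPs against 14.0% ± 0.826 in SCA1-Low-FAPs (SD, n = 4). Its shares ran from 3.25% to 11.3% in the former and from 13.3% to 15.2% in the latter, without overlap (exact two-sided permutation test, p = 0.0286, the smallest possible, and 0.100 after adjustment over 7 shares). *Jun* made up 35.1% ± 2.28 of Jun family counts in SCA1-High-FAPs against 29% ± 0.784 in SCA1-Low-FAPs, from 33.1% to 37.7% and from 28.0% to 29.8%, again without overlap (exact permutation p = 0.0286, adjusted 0.100). Neither share passed after adjustment, and with 2 of 7 shares at the smallest possible p none could have.

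The other shares overlapped between the states. *Fosl2* was the largest part of the Fos family in 7 of 8 samples, at 57.8% ± 21.9 and 65.9% ± 15.7 (exact permutation p = 0.571). In SCA1-High-FAPs replicate 2 the share of *Fos* was larger, at 41.1% (Wilson 95% interval 38.4% to 43.9%), whereas in SCA1-High-FAPs replicate 4 it was 3.07% (2.16% to 4.35%), and these intervals cover counting error only. The mean share of *Fos* was 26.0% ± 18.4 in SCA1-High-FAPs against 14.5% ± 11.2 in SCA1-Low-FAPs (exact permutation p = 0.371), and that of *Fosb* was 9.91% ± 7.33 and 5.64% ± 5.03 (exact permutation p = 0.429). *Junb* was at 35.9% ± 2.96 and 39.7% ± 2.43 (exact permutation p = 0.0857) and *Jund* at 29% ± 4.55 and 31.3% ± 2.64 (exact permutation p = 0.371). The SD of a share was at most 4.55 percentage points in the Jun family and reached 21.9 in the Fos family.

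**Figure D4:**
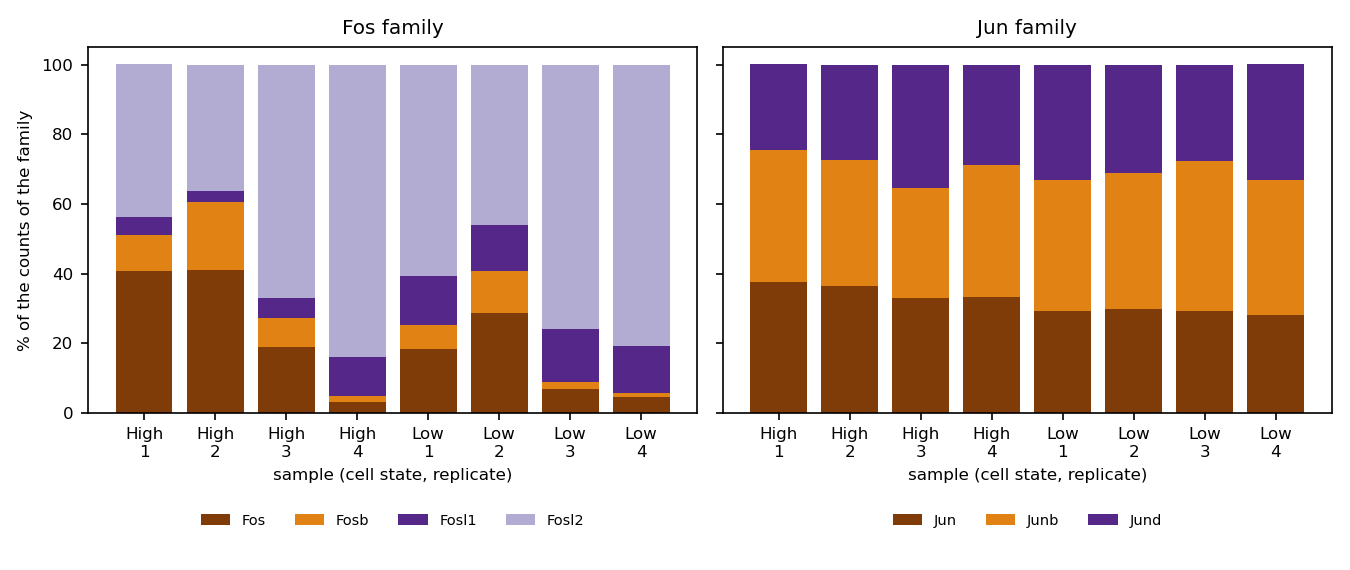
Share of each subunit in the counts of the Fos family (left) and of the Jun family (right), in percent, for each SCA1-High-FAPs (High) and SCA1-Low-FAPs (Low) sample. *Fosl2* took 36.3% to 84.0% of Fos family counts, and the share of *Fosl1* was 13.3% to 15.2% in the SCA1-Low-FAPs samples and 3.25% to 11.3% in the SCA1-High-FAPs samples.

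Other bZIP proteins compete for or join these pairs. Of 10 such genes 7 were tested, with a median log2 fold change of 0.01. Of these 7, 2 were called, 1 up in each cell state, where 7.68% of all tested genes were called. The count was 0 without SCA1-High-FAPs replicate 2 or 3 or SCA1-Low-FAPs replicate 4. *Maff*, a small Maf protein without an activation domain, was 15.5 ± 4.01 CPM in SCA1-High-FAPs against 32.4 ± 5.44 CPM in SCA1-Low-FAPs (log2 fold change 1.07 ± 0.28 SE, edgeR adjusted p = 0.0251). *Atf7*, an ATF2-like factor that pairs with JUN, was 85.2 ± 17.7 CPM in SCA1-High-FAPs against 45.7 ± 13.5 CPM in SCA1-Low-FAPs (−0.89, edgeR adjusted p = 0.0253). The most abundant partners not called were *Maf* (−0.40, edgeR adjusted p = 0.135) and *Mafg*, another small Maf protein (0.01, edgeR adjusted p = 0.983).

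In the wider list of 44 immediate early genes, 39 were tested and 3 were called, 1 up in SCA1-Low-FAPs, 2 up in SCA1-High-FAPs, and the median log2 fold change was 0.01. This was about the share called over all tested genes, 7.68%. *Ier3*, which encodes a survival factor, was 125 ± 16.6 CPM in SCA1-High-FAPs against 283 ± 79.1 CPM in SCA1-Low-FAPs (log2 fold change 1.18 ± 0.19 SE, edgeR adjusted p = 0.00129). *Zfp36l1*, a relative of *Zfp36* that promotes decay of AU-rich mRNAs, was 365 ± 49.3 and 193 ± 52.0 CPM (−0.92, edgeR adjusted p = 0.00457), and *Trib1*, a pseudokinase, was 138.5 ± 37.8 and 80.3 ± 9.53 CPM (−0.78, edgeR adjusted p = 0.0184). *Ccn2* and *Klf6*, the most abundant of the others, did not pass, and *Ccn2* was at 44.3 CPM in SCA1-High-FAPs replicate 3 against 429.5 to 1528 CPM in the other 7 libraries. Among the genes of this list whose highest samples were those of *Fos*, none was called, with log2 fold changes from −0.87 for *Zfp36* to 0.57 for *Klf2*.

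None of the 20 tested of 22 genes that encode kinases and factors acting on these promoters was called by edgeR or by DESeq2, and 2 had an unadjusted p under 0.05 in each. Over all tested genes edgeR called 7.68%, and 21.3% had an unadjusted p under 0.05. The median log2 fold change of the 20 genes was −0.18. *Mapk3*, the ERK1 kinase, was at −0.20 ± 0.16 and *Cops5*, a cofactor of JUN, at 0.00 ± 0.15 (log2, SE), and both were among the most abundant of the list.

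Genes known as AP-1 targets in other cells were 21 in the list, of which 15 were tested and 11 did not pass. The 4 called were higher in SCA1-Low-FAPs, where 3.32% of all tested genes were called in that direction, and the median log2 fold change of the 15 was 1.097. They were *Axl*, a receptor tyrosine kinase (1.82 ± 0.32 SE, edgeR adjusted p = 0.00780), *Itga5*, the fibronectin receptor subunit (1.39 ± 0.32, adjusted 0.0116), *Cd44*, the hyaluronan receptor (1.097 ± 0.26, adjusted 0.0216) and *Timp1*, an inhibitor of metalloproteinases (0.96 ± 0.16, adjusted 0.00185). *Axl* was at 82.9, 142, 60.1 and 110.4 CPM in SCA1-High-FAPs against 411, 384, 175 and 432 CPM in SCA1-Low-FAPs. Its values did not overlap between the states. The most abundant targets not called were *Mmp14*, a membrane metalloproteinase (0.41, edgeR adjusted p = 0.201), and *Hmox1*, which encodes heme oxygenase (0.83, edgeR adjusted p = 0.105).

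**Figure D5:**
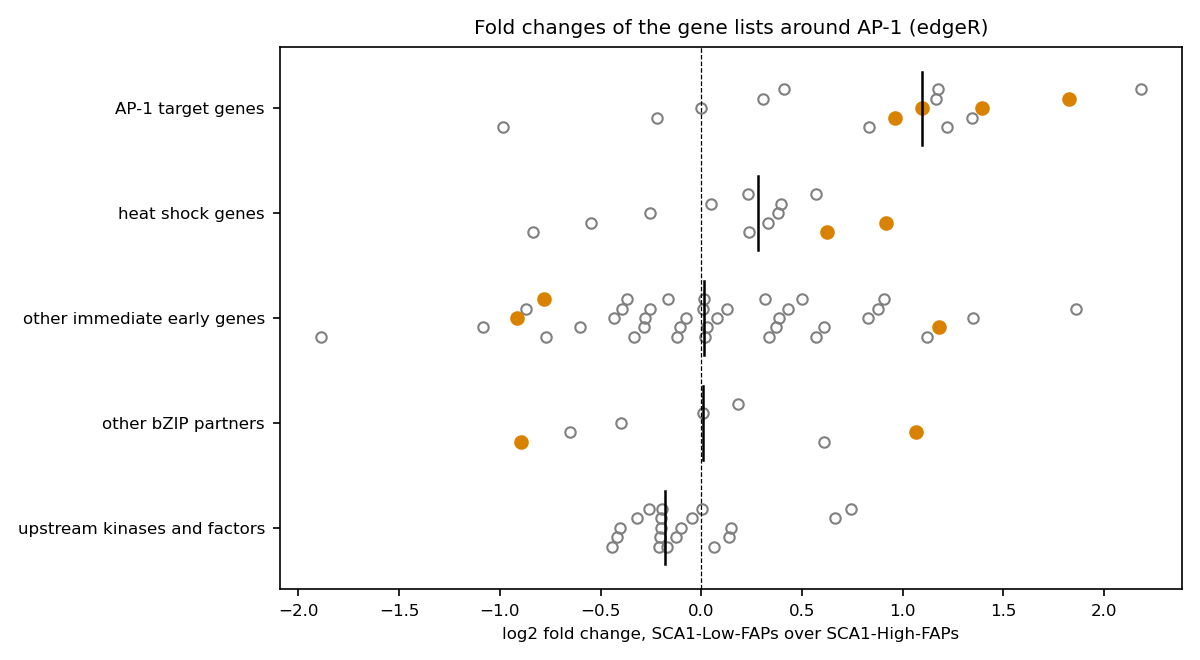
log2 fold change (SCA1-Low-FAPs over SCA1-High-FAPs, edgeR) of every tested gene of 5 lists, with called genes in orange, the others as open circles and a line at the median of each list. The 4 called AP-1 target genes lay above 0, with a list median of 1.097, whereas the medians of the immediate early genes, bZIP partners and upstream factors were 0.01, 0.01 and −0.18.

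Heat shock genes, another group that responds to stress, were called in 2 of 12 cases, both higher in SCA1-Low-FAPs, the direction in which 3.32% of all tested genes were called, with a median log2 fold change of 0.28. These were *Hspb1* (0.92, edgeR adjusted p = 0.0291) and *Hsp90aa1* (0.63, edgeR adjusted p = 0.0166), while *Hsp90ab1* (0.33) and *Hspa8* (0.24) did not pass. The count was 0 without SCA1-Low-FAPs replicate 1 or 4. The 5 proliferation markers *Mki67*, *Top2a*, *Ccnb1*, *Birc5* and *Cdk1* were all called higher in SCA1-Low-FAPs, as 3.32% of all tested genes were. This was the direction of *Fosl1*, and their median log2 fold change was 1.03. The summed level of 6 adipocyte markers went the other way, at 1051 to 5533 CPM in SCA1-High-FAPs against 118.5 to 640.1 CPM in SCA1-Low-FAPs. Of 5 tested, 2 were called, *Adipoq* and *Lipe*, in the direction in which 4.36% of all tested genes were called. That count was 0 without SCA1-High-FAPs replicate 3 or SCA1-Low-FAPs replicate 1, 2 or 4, 1 without SCA1-High-FAPs replicate 1 or 2, 4 without SCA1-High-FAPs replicate 4 and 6 of 6 with DESeq2. The part of proliferation and of adipocyte content in the difference of *Fosl1* was not tested. In the paper, SCA1-High-FAPs had the shorter doubling time in culture and the larger fraction of dividing cells in muscle. It relates the faster fall of their Ki-67 positive cells in culture to earlier confluence. The part of cell density in the proliferation markers was not tested here.

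Markers of muscle stem cells, leucocytes and endothelial cells, which the sort was meant to remove, were low. The defining muscle stem cell genes *Pax7*, *Myf5* and *Myod1*, the leucocyte genes *Adgre1*, *Cd3e* and *Cd79a* and the endothelial gene *Emcn* had no count in any library. The 6 endothelial markers summed to 7.39 CPM at most, the 6 muscle stem cell markers to 12.5 CPM and the 2 Schwann cell markers to 5.43 CPM. The 7 leucocyte markers summed to 25.3 to 48.0 CPM in SCA1-High-FAPs against 12.5 to 19.4 CPM in SCA1-Low-FAPs, and the only one of them tested, *Lyz2*, was called higher in SCA1-High-FAPs (−1.42, edgeR adjusted p = 0.0153, lost without replicate 1 of either state). The 6 pericyte and smooth muscle markers summed to 25.3 to 44.7 and 27.3 to 67.0 CPM. Of 3 tested, *Myh11* and *Cspg4* were called higher in SCA1-Low-FAPs and *Notch3* in SCA1-High-FAPs, where 7.68% of all tested genes were called in either direction. But none of these 3 calls was made without SCA1-High-FAPs replicate 4 or without SCA1-Low-FAPs replicate 1 or 2, and 1 was made without SCA1-High-FAPs replicate 2 or 3 or SCA1-Low-FAPs replicate 4.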

How the data were processed

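The study measured RNA of 8 samples, 4 SCA1-High-FAPs and 4 SCA1-Low-FAPs, grouped by the labels, with QuantSeq 3′ mRNA libraries. The authors trimmed adapters, poly-A tails and poor ends with bbduk, aligned to mm10 with STAR and assigned reads to Ensembl genes with HTSeq. The deposited values are raw counts of uniquely aligned reads per gene, and entries that name no gene, 47.9% to 52.5% of each file, were left out. Molecular identifiers and the strand setting were not given in the sources used here. The design text speaks of 4 mice but does not tie sample numbers to a mouse. If each mouse gave both cell states, the samples are paired, which the main tests do not take into account.

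Counts were compared with edgeR 4.0.16 (quasi-likelihood test, robust option) in R 4.3.3, with TMM normalisation, filterByExpr (minimum count 10, total 15) and Benjamini-Hochberg adjustment over 10181 genes, and with thresholds of 0.05 and 0.5 on the log2 scale. CPM used the same factors. DESeq2 1.42.0, RLE normalisation, other filters, the replicate number as a block and each replicate left out were the alternatives. The test was checked on simulated data. Shares were compared by exact permutation tests. Correlations over samples used log2 CPM with a prior count of 2. All members were named, with the called genes and up to 2 abundant uncalled genes of each other list. Some listed genes are not reported here and enter no list count. Members and lists were chosen with earlier results of these data known. Names and positions came from GENCODE M21 on GRCm38, by which 31011 of 31053 identifiers were matched. Python 3.11.15, pandas 2.3.3 and matplotlib 3.10.9 were used.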

Additional observations from a re-analysis of the deposited data

How the results depend on the processing

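With each replicate left out in turn, the number of called genes ran from 410 to 1017 (410 without SCA1-Low-FAPs replicate 4 and 417 without SCA1-Low-FAPs replicate 1, against 782 with all), called members from 0 to 2, bZIP partners from 0 to 2 (0 without SCA1-High-FAPs replicate 2 or 3 or SCA1-Low-FAPs replicate 4, 1 without SCA1-Low-FAPs replicate 1 or 2), other immediate early genes from 2 to 5 (5 without SCA1-Low-FAPs replicate 3), upstream factors from 0 to 1 (1 without SCA1-High-FAPs replicate 2), AP-1 targets from 3 to 7 (7 without SCA1-High-FAPs replicate 4) and heat shock genes from 0 to 2 (0 without SCA1-Low-FAPs replicate 1 or 4, 1 without SCA1-High-FAPs replicate 1, 3 or 4 or SCA1-Low-FAPs replicate 2). The share of *Fosl1* differed by 6.64 to 9.31 percentage points, with an exact permutation p of 0.0571 without any 1 SCA1-Low-FAPs sample. Without SCA1-High-FAPs replicate 2 the log2 fold change reversed for *Fosb* (0.0662, lowest of its fits −1.81), *Junb* (0.0533, lowest −0.324) and *Jund* (0.005, lowest −0.343). DESeq2 called 6 other immediate early genes and 7 AP-1 targets, and 2 members were called without the filter on low counts. Over all tested genes same-numbered samples did not deviate together (correlations of −0.0502 to 0.00673), and 0 of 8 samples correlated best with their own number. Each replicate 1 was closest to replicate 2 of the other state, and each replicate 3 to replicate 4, with correlations of 0.131 to 0.255. With the replicate number as a block, edgeR called 2 members (*Fosl1*, adjusted p = 0.0355, and *Egr1*, −0.75, adjusted p = 0.0309), 1 partner, 5 other immediate early genes and 1 heat shock gene, while the share differences of 7.66 for *Fosl1* and −6.12 for *Jun* had an exact sign-flip p of 0.125, the smallest 4 pairs allow. In *Fos* and *Fosb*, whose same-numbered samples were high or low together, the block lowered the standard error from 1.1 to 0.243 and from 1.13 to 0.271 without a call (edgeR adjusted p = 0.114 and 0.0775), and 4 adipocyte markers and 1 of 2 FAP markers higher in SCA1-Low-FAPs were called with it. No call among members was changed by RLE normalisation, by a minimum of 10 counts in every sample or by dropping the fold threshold. The design text names biological replicates but ties no sample to a mouse, so p-values measure the spread between these samples, and at this depth *Atf3* could not be resolved. The cause of these changes was not tested.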
